A study of Homo sapiens with 9 samples.

Results

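Undifferentiated H9 cells were profiled without any siRNA, and the 3 arrays of these untreated cells are described here on their own, with the other arrays of the series used only for a closing description. H9 is a long-used human embryonic stem cell line, whose cells self-renew and can form all germ layers. The series holds 9 arrays, of which 3 carried RNA of cells given no siRNA, 3 of cells given a non-silencing siRNA and 3 of cells given an siRNA against TCF7L1, a transcription factor of the Wnt pathway, all sampled at day 3 per the labels. Each sample was hybridised to 1 Affymetrix whole-transcript array. The labels do not say that replicates were separate cultures, so each SD given here (n = 3) measures only the spread between these arrays. The cells were measured in bulk, where fewer cells of a type and less RNA per cell cannot be told apart.

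The members were the probe sets that had a chromosome and exactly 1 gene symbol, which were 22043 of 33297 (66.2%) and stood for 20183 genes. Each value is a PLIER signal, an intensity on a linear scale that merges the probes of a probe set. Probe sets were ranked by their mean over the 3 arrays, and the percentile of a gene is its place in that ranking, with 100 at the top. The top 10% formed the high class, and a probe set at or under the 25th percentile of its array's non-control probe sets on each array formed the low class. Everything between was the middle class. Signals of different probe sets also depend on how well their own probes respond, so differences in class or of many percentiles are read here, and small ones are not. A gene with several probe sets is given by the brightest.

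Embryonic stem cells keep their state through a small set of transcription factors, among them POU5F1, SOX2 and NANOG, which bind each other's genes and hold lineage genes in check. Human lines grown with FGF2 and activin resemble the epiblast after implantation, a state called primed, whereas the earlier naive state uses further factors such as KLF17 and DPPA5. The cells divide rapidly and rely heavily on glycolysis.

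The 3 arrays had medians of 182, 183 and 178 over the ranked probe sets, and the rank correlations between pairs of arrays were 0.995, 0.994 and 0.995. A mean of 1072 marked the lower edge of the high class, and the median of all members was 181. The high class had 2206 probe sets, the middle class 17163 and the low class 2674. Those in the high class carried 48.6% of all summed signal, the brightest 220 alone carried 11.7%, and the low class carried 0.477%. The median coefficient of variation over arrays was 5.80% in the high class, 8.21% in the middle class and 16.4% in the low class, so bright signals varied least in relative terms. Of the high class, 90.5% lay in the top 10% of every array. Just inside its edge lay ARPC5, PDPN, PGAM5 and PFDN6 with means of 1072.04, 1071.68, 1071.60 and 1071.54, and just outside lay SORD with 1071.25.

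**Figure D1:**
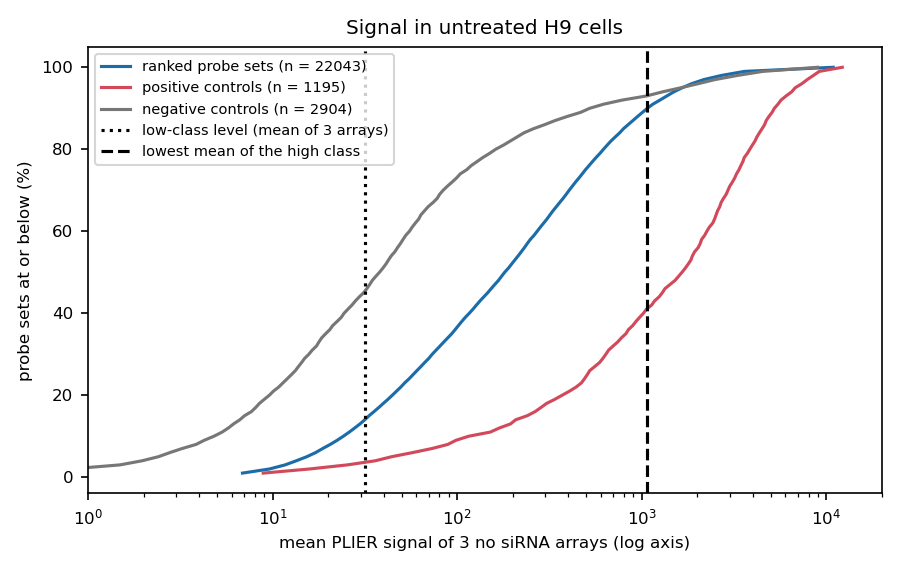
Cumulative share of probe sets (y axis, %) against the mean PLIER signal of the 3 no siRNA arrays (x axis, log scale) for ranked probe sets, positive controls and negative controls. Positive controls reach the highest signals, and the upper end of the negative controls crosses the line of the ranked probe sets beyond the edge of the high class at 1072.

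The array's negative control probe sets gave no sharp line between background and expression. Their medians were 38.0, 36.9 and 36.7 on the 3 arrays, yet their 95th percentiles were 1636, 1443 and 1777. Above those 95th percentiles lay 904 probe sets on all 3 arrays (4.1%), while 567 did so on 1 or 2 arrays and 20572 on none. These controls had a median of 4 probes each, against 28 for ranked probe sets. The low class held 12.1% of the probe sets, and a low signal is not a measure of zero expression.

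The 3 genes taken as markers of the undifferentiated state were all near the top of the ranking. POU5F1, the core pluripotency factor also called OCT4 (chromosome 6, 31132326 to 31138451 on build 37), read 5133, 5301 and 5099 on the 3 arrays, a mean of 5178 ± 108. LIN28A, an RNA-binding protein that blocks let-7 maturation, read 5715, 5662 and 5494, a mean of 5624 ± 115. SOX2, the partner of POU5F1 on DNA, read 2683, 2752 and 2648, a mean of 2694 ± 52.7. All 3 arrays placed each of these genes in the top 10%, and the arrays lay within a few percent of one another. These markers were fixed in advance, and their levels describe the arrays without testing the state of the cells.

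Of 44 measured pluripotency factors and markers, 27 were in the high class, 17 in the middle class and 0 in the low class, whereas 9.81% of all 20183 genes were high and 11.8% were low. The list had a median signal of 1441 at percentile 93.6, against 189 at percentile 51.0 over all genes. Surface and chromatin genes stood beside the core factors. PODXL, a sialomucin that carries the TRA-1 epitopes used to sort these cells, had a mean of 4971 ± 66.3, PHC1, a Polycomb subunit, 4494 ± 132, and TERF1, a telomere-binding protein, 3906 ± 411. JARID2, which recruits Polycomb repressive complexes, had 3145 ± 61.9. All 4 were in the high class on the mean.

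Some other widely used markers, chosen for naming after their values were seen, were in the high class, and 17 of the 44 listed were middle. NANOG, the third core factor, read 1889.8, 1820.3 and 2022 on its brightest probe set. That probe set lies on chromosome 15, where the array annotation also places this symbol but RefSeq does not. On the probe set at its own locus on chromosome 12, NANOG read 1833, 1759 and 1954. Both sets of values fell in the high class, and whether they read separate transcripts was not tested. DPPA4 had a mean of 2328 ± 149.9, SALL4 2151 ± 89.5, ZFP42 (also called REX1) 1866 ± 97.3 and USP44 2102 ± 77.5. CRIPTO, the co-receptor of Nodal also called TDGF1, varied more than most of the list, at 3580.3, 2404 and 3291. Replicate 2 was the low one for CRIPTO, and its mean of 3092 ± 613 still ranked at percentile 98.5.

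Members of the list with weak signal included several secreted factors. FGF4 had a mean of 126, KLF4 56.7 ± 5.47 and NODAL, the ligand that maintains the primed state, 36.9, 37.6 and 31.0 on the 3 arrays. The NODAL probe set thus lay at percentile 15.9, just above the low class. LEFTY1, a Nodal inhibitor, had 186 ± 31.9 and DPPA2, a partner of DPPA4, 184 ± 25.4, both close to the median of all members. TERT, the catalytic subunit of telomerase, had 252 ± 14.9, and LEFTY2 had 167 ± 25.1. Further widely used markers were in the middle class. They included L1TD1 at 908 ± 40.3, PRDM14 at 668 ± 79.1, FOXD3 at 235 ± 24.4, GDF3 at 195 ± 28.2 and UTF1 at 195 ± 42.2.

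Of 14 naive-state factors, 1 was high, 9 were middle and 4 were low, with a median at percentile 22.8. The high one was STAT3, a signal transducer used in many cell states, at 1577, 1712 and 1498. KLF17 read 30.3, 29.1 and 21.1, NR0B1 23.5, 27.3 and 29.8 and DPPA5 23.9, 25.9 and 20.1. All 9 of these values were at or under the low-class level of their array. ARGFX, a homeobox gene of the early embryo, was lowest at 15.2, 11.9 and 14.9. TFCP2L1 had a mean of 155 ± 3.46, ESRRB 42.0 ± 6.90, and KLF2 773 ± 42.3 and NR5A2 394 ± 45.9 were the brightest after STAT3.

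**Figure D2:**
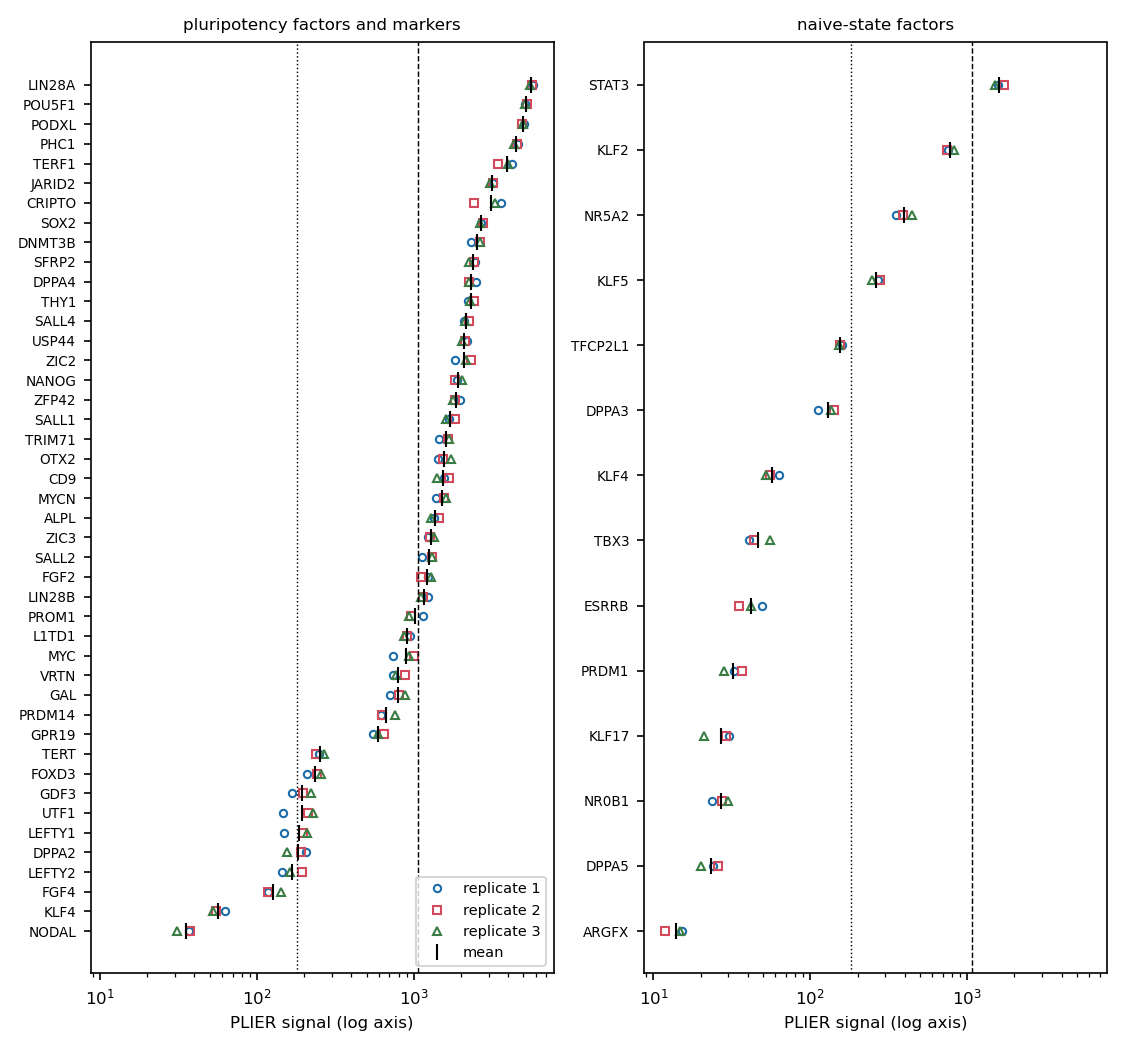
PLIER signal on the 3 no siRNA arrays (x axis, log scale, 1 symbol per replicate, bar for the mean) of each measured pluripotency gene and naive-state factor (y axis). The dashed line marks the lower edge of the high class at 1072 and the dotted line the median of all members at 181, and 27 of 44 pluripotency genes lie right of the dashed line against 1 of 14 naive-state factors.

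Across 61 gene lists with 3396 distinct genes, 550 genes were high and 618 were low. Over all 20183 genes, 1979 were high (9.81%) and 2376 were low (11.8%), and the counts of each list are to be read beside these shares. The brightest lists by median served protein synthesis, energy, protein folding and cell structure. The 20 top-ranked probe sets named only non-coding RNAs of the ribosome and the signal recognition particle, ribosomal proteins, mitochondrially encoded genes, histone H1-4, tubulin, GAPDH, RACK1 and PTMA. RN7SL1, the RNA of the signal recognition particle, was first with 9488, 10501 and 12682, from 4 probes. RNA28SN5, the 28S ribosomal RNA, followed with 11285, 9521 and 10567. PTMA, prothymosin alpha, had a mean of 9629 from 4 probes on chromosome 20, and GAPDH, a glycolytic enzyme, 9096 ± 166.

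Of 84 ribosomal proteins, 68 were high, 16 were middle and 0 were low, with a median signal of 3408 at percentile 98.9. RPS28 read 7845, 8620.1 and 8582, RPL18 7281, 7080.3 and 7246 and RPL13A 7189.6, 6698 and 7243. The 3 replicates of each lay within the top 10% by a wide margin. The lowest of the list were RPL32 with a mean of 238 ± 19.6, RPL3L, a form made in muscle, with 232 ± 19.9 and RPL13 with 218 ± 17.7. For 19 of the 84 the brightest probe set lay on a chromosome other than the gene's own in RefSeq. Translation factors followed with 28 of 32 high and a median at percentile 96.8. Among them EEF1G, a subunit of elongation factor 1, had a mean of 5803, EEF2, the translocation factor, 5277 ± 191 and EIF4B, a helicase cofactor, 4105 ± 187. EIF4E, the cap-binding protein, had 557 ± 41.8 and EIF5A 246 ± 0.461.

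Start sites of ribosomal protein genes are known for a run of pyrimidines that begins with C, the 5′ terminal oligopyrimidine tract, through which their translation is tied to growth signals. The RefSeq sequence around the annotated start (GRCh38.p14) is shown for the 3 brightest such genes represented at their own locus and for GAPDH as a gene outside the family, with the first base of the transcript at position 11 and capitals for the run of C and T from it where the run begins with C and is at least 5 long.
RPS28 (chr19:8321486-8321507, plus strand): gaagcacgtgactcctctccgc
RPL18 (chr19:48619167-48619188, minus strand): agcccgttctCTCTTTCCggac
RPL13A (chr19:49487598-49487619, plus strand): aaacctcctcCTTTTCCaagcg
GAPDH (chr12:6535254-6535275, plus strand): gtgcatccctgtccggatgctg
Such a run stood at the annotated start of 33 of 51 ribosomal protein genes with a promoter in the table (64.7%) and of 7 of 24 translation factors (29.2%). Over all 14480 protein-coding genes with a promoter it stood at 4.63%, with 9.17% in the high class, 4.29% in the middle class and 2.66% in the low class. The RPS28 start as annotated held none, and a match is only a description of these letters.

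Genes of mitochondrial energy supply ranked high. Of 9 mitochondrially encoded genes, 8 were high. COX2, subunit 2 of cytochrome oxidase, had a mean of 8887 ± 947, CYTB, of complex III, 8187 ± 784 and COX1 7845 ± 721. For all 3 genes replicate 1 was highest and replicate 2 lowest, with COX2 at 9693, 7845 and 9124. ND6, encoded on the other strand, was the lowest at 321, 284 and 406. Of 81 nuclear genes of the respiratory chain, 36 were high, 45 middle and 0 low, with ATP5MC1 and ATP5F1B of the ATP synthase brightest at 4853 ± 196 and 4702 ± 93.7.

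Of 19 glycolysis genes, 14 were high and 0 were low, with a median at percentile 97.8. ENO1, enolase, had a mean of 6617 ± 151, LDHA 5089 ± 206, LDHB, the other lactate dehydrogenase subunit, 4252 ± 244, and SLC2A3, a high-affinity glucose transporter, 4677 ± 177. Weakest were PFKM with 749 ± 59.4, the hexokinase HK2 with 718 ± 95.2 and PFKL with 547 ± 3.36. The muscle and liver forms of phosphofructokinase, PFKM and PFKL, were thus in the middle class.

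Genes of other biosynthetic pathways were also often in the high class. In one-carbon and nucleotide synthesis 15 of 26 genes were high, led by PHGDH, the first enzyme of serine synthesis, at 4039.6 ± 357, and MAT2A, which makes S-adenosylmethionine, at 3421 ± 139. In cholesterol synthesis 12 of 22 were high, with FDFT1, squalene synthase, at 4995 ± 389.6. HMGCS1 and MSMO1 of this pathway were among the 10 widest spreads between arrays above the negative control level, at 3676, 2666 and 2443 for HMGCS1 and 4034, 2808 and 3245 for MSMO1. Replicate 1 was highest for both. Of 10 metallothioneins, small zinc- and copper-binding proteins, 9 were high, with MT1F at 3860.1 ± 161 and MT1G at 3393 ± 148. Their sequences are close to one another, so the separate values are uncertain.

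Folding, turnover and the cytoskeleton had few weak members. Of 26 chaperones, 22 were high and 0 low, with HSPA8 at 7473 ± 243 and HSP90AB1 at 5857 ± 59.8, both constitutive cytosolic chaperones. The stress-inducible cochaperone DNAJB1 was lowest at 602 ± 77.6. Of 39 proteasome subunits, 22 were high, 17 middle and 0 low. The immunoproteasome subunits PSMB9 and PSMB8, which interferon induces, had 101 ± 5.38 and 70.4 ± 8.32, and PSMB11, the thymus subunit, 38.9 ± 3.62, against 3197 ± 155 for the constitutive subunit PSMB6. Of 25 cytoskeleton and motor genes, 24 were high, with TUBB at 8331 ± 124 and ACTB at 7498 ± 196. The exception was vimentin, VIM, at 1067 ± 133, just outside the high class. Of 59 splicing and RNA-binding proteins, 40 were high and 1 low, with HNRNPD at 4319 ± 217 and HNRNPK at 4129 ± 127.

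Every measured mitosis and replication gene lay above the median of the ranking. Of 26 mitosis genes, 16 were high and 10 middle, with PLK1, a mitotic kinase, at 2283, 2388 and 2118 and CDC20, the activator of the anaphase-promoting complex, at 2111, 2182 and 2113. TOP2A, TPX2 and CCNA2 had means of 1992 ± 165, 1792 ± 149.7 and 1782 ± 131, and CENPE was lowest at 484 ± 54.0. Of 30 replication genes, 14 were high and 16 middle, with the helicase subunits MCM7 at 2198 ± 141 and MCM3 at 2059.8 ± 136, and with RPA3 lowest at 241 ± 13.6. Regulators of G1 ranked lower, with 3 of 22 high (13.6%), near the 9.81% of all genes. The high ones were CDK4 at 2387 ± 112, CCND2 at 2301 ± 12.8 and E2F4 at 1345 ± 158, and CCND1, at 1057 ± 83.9, lay just outside. CDK6, another kinase of the list, had 237 ± 19.6 at percentile 56.7. The weakest of the list were E2F2 at 73.8 ± 4.66 and the inhibitors CDKN2A and CDKN2C. CDKN2A read 42.2, 32.7 and 34.3, and CDKN2C read 27.4, 18.1 and 24.1. CDKN2C was in the low class and CDKN2A lay just above it. Of 25 DNA repair genes, 10 were high and 0 low, with APEX1, the base excision endonuclease, at 4363 ± 186.

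Of 69 core histone genes, 36 were high, 32 middle and 1 low. H3C11 read 5613, 5029 and 5435, H2BC14 4184, 5260.2 and 5030.2 and H4C3 4307, 4011 and 3667. Replication-dependent histone messages end in a stem-loop and lack a long poly(A) tail, and many are near copies of one another. The germline forms H2BC1 and H2AC1 had 27.8 ± 2.81 and 186 ± 25.1. H4C7 was also weak at 35.2 ± 3.85, and the low member, H2AP, had 21.4 ± 4.36. H2AC1 lay near the median of the ranking, as did H2BC26 at 244 ± 39.8.

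Promoters of cell-cycle and histone genes carry CCAAT boxes, which the factor NF-Y binds, and histone promoters also carry TATA boxes. CCAAT was searched on both strands of the 250 bases before the start, and it stood before 18 of 21 mitosis genes (85.7%) and 52 of 61 core histone genes (85.2%), against 34.7% of all 14480 genes. TATAAA, searched the same way, stood before 39 of 61 histone genes (63.9%) and 2 of 21 mitosis genes (9.52%), against 8.87% of all. The 2 promoters below (RefSeq, GRCh38.p14, 250 bases before the start) show a bright gene of each list, with CCAAT and TATAAA of either strand in capitals, so ATTGG and TTTATA mark the reverse strand.
PLK1 (chr16:23678639-23678888, plus strand): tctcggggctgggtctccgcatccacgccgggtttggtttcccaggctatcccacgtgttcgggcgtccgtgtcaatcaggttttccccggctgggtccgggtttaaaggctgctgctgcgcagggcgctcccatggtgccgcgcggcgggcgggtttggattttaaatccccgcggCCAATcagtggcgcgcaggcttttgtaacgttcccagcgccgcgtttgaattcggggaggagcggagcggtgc
H2BC14 (chr6:27814772-27815021, plus strand): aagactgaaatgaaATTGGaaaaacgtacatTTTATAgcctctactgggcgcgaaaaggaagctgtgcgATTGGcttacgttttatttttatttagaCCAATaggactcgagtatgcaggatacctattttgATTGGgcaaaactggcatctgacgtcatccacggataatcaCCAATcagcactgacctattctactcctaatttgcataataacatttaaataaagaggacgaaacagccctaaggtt
The PLK1 window held 1 CCAAT and 0 TATAAA, and the H2BC14 window held 5 CCAAT and 1 TATAAA.

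**Figure D3:**
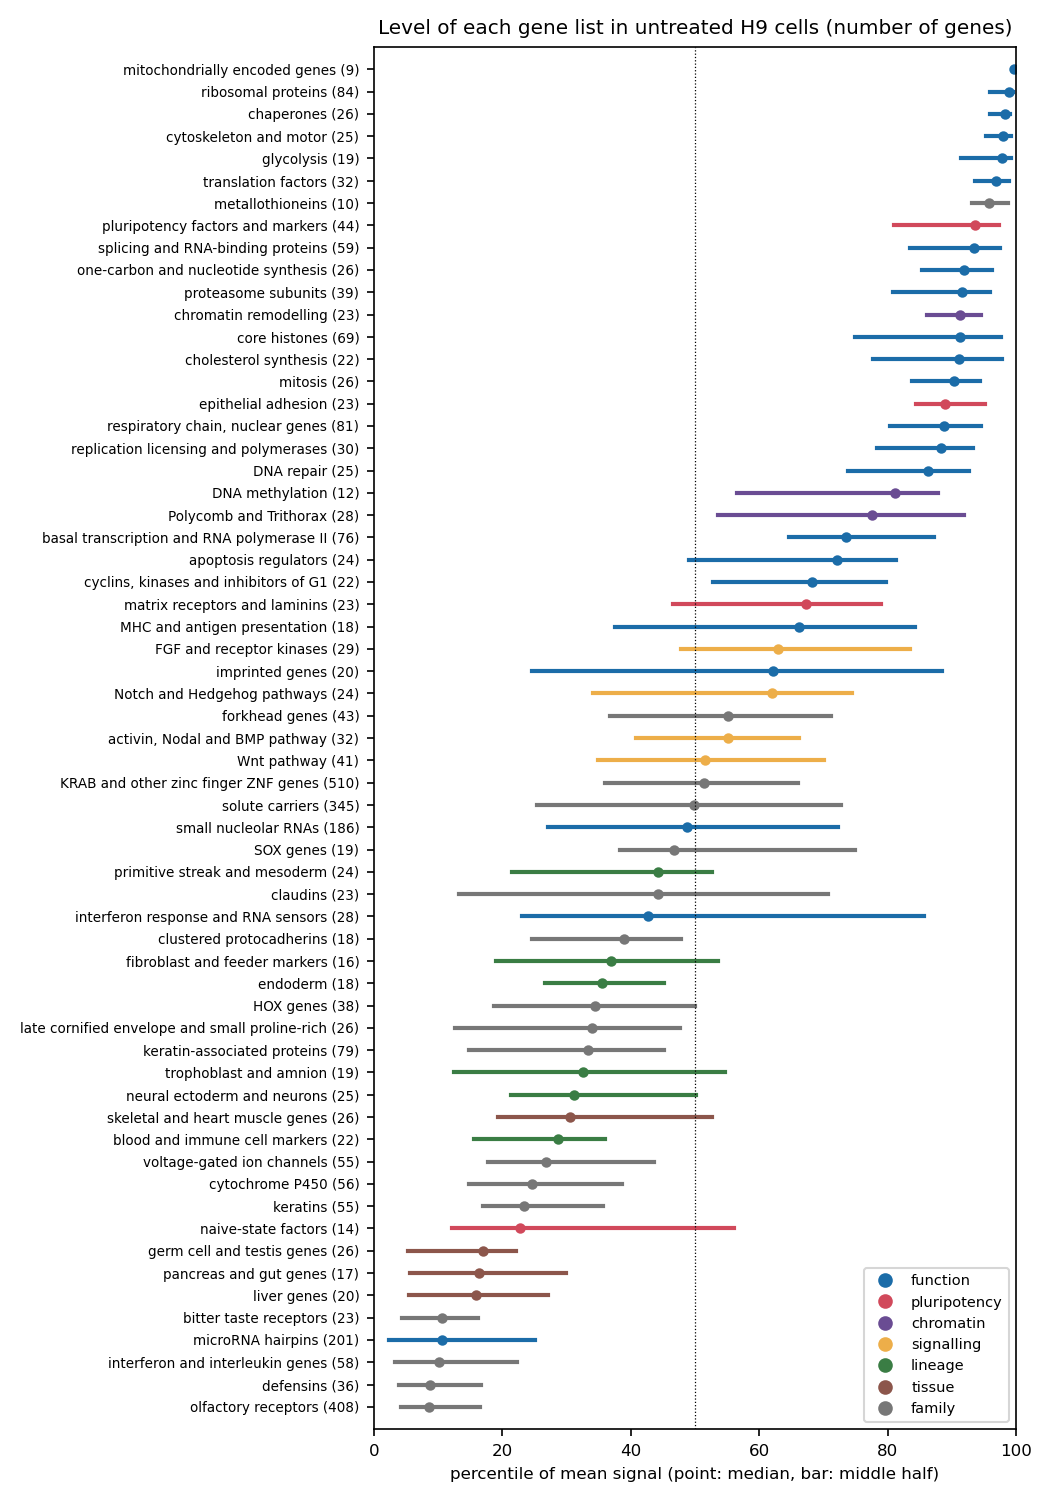
Percentile of mean signal among ranked probe sets in the no siRNA arrays (x axis) for each gene list (y axis, number of genes in brackets), with the list median as a point and a bar between the quartiles, coloured by kind of list. Mitochondrially encoded genes and ribosomal proteins lie at the top, with medians at percentiles 99.8 and 98.9, and olfactory receptors at the bottom, with a median at percentile 8.53.

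Embryonic stem cells grow as compact epithelial colonies. Of 23 epithelial adhesion genes, 11 were high and 0 low, with CTNNB1, beta-catenin, at 3857 ± 316, the claudin CLDN6 at 3026 ± 163 and E-cadherin, CDH1, at 2223, 2151 and 2061. CLDN4 was lowest at 153 ± 9.10 and the mesenchymal cadherin CDH11 had 194 ± 10.7. Among keratins only KRT18 and KRT8, the pair of simple epithelia, were high of 55, at 2047 ± 62.9 and 2042 ± 76.2. Of 23 matrix receptors and laminins, 3 were high, and these were the integrins ITGB1 at 1573 ± 163, ITGA6 at 1505 ± 175 and ITGB5 at 1356 ± 124. Integrins alpha 6 and beta 1 together form a laminin receptor.

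Chromatin genes were mixed. Of 12 genes of DNA methylation, 3 were high, namely the de novo methyltransferase DNMT3B at 2300.0, 2656 and 2626, the maintenance enzyme DNMT1 at 1247, 1441 and 1243 and the dioxygenase TET1 at 1116, 1108 and 1014. DNMT3A had a mean of 745 ± 26.5, TET3 172 ± 3.38 and TET2 93.2 ± 9.81. DNMT3L, a cofactor active in germ cells and naive cells, was in the low class at 26.0, 28.7 and 26.2. Members of the DNMT family therefore fell in all parts of the ranking. Of 28 Polycomb and Trithorax genes, 8 were high and 0 low, with RBBP7 at 3926 ± 558 and RBBP4 at 2442 ± 339, histone-binding subunits of several complexes. BMI1 and PHC2 were among the weakest at 97.8 ± 12.5 and 121 ± 3.90, so among paralogues of the PHC family the signal of PHC1 was high and that of PHC2 middle. Of 23 chromatin remodelling genes, 13 were high, with HDAC2 at 2125 ± 238 and SMARCC1 at 1935 ± 130.4, and SMARCA2, an ATPase of the BAF complex, was lowest at 77.9 ± 7.20.

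The share of high genes in most signalling lists was near the 9.81% of all genes. In the Wnt list, 4 of 41 were high (9.76%), and these were CTNNB1, the receptor FZD7 at 1919 ± 267, GSK3B, the kinase that marks beta-catenin for turnover, at 1119 ± 73.8 and TCF7L1, which represses Wnt targets when beta-catenin is absent. TCF7L1 (chromosome 2, 85360583 to 85537505 on build 37) read 1473, 1842 and 1667, a mean of 1661 ± 184 at percentile 95.1. Replicate 2 was highest and replicate 1 lowest, and all 3 arrays had it in the top 10%. The ligands WNT7B, WNT2B and WNT8A had 46.5 ± 8.99, 42.5 ± 0.623 and 40.0 ± 2.41.

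In the FGF and receptor kinase list, 5 of 29 were high (17.2%). The feedback inhibitors SPRY4 and DUSP6 had 2200.1 ± 96.0 and 2115 ± 209, the receptor FGFR1 1471 ± 53.1 and FGF2 itself 1211 ± 90.6, followed by ERBB2 at 1089 ± 121. FGF8 had 62.5 ± 14.4 and FGF10 27.0 ± 6.56. In the activin, Nodal and BMP list, 4 of 32 were high (12.5%), and these were CRIPTO, the BMP receptor BMPR1A at 1816 ± 105 and the transducers SMAD4 at 1432 ± 52.1 and SMAD5 at 1312 ± 12.1. Among Notch and Hedgehog genes 2 of 24 were high (8.33%), among them the Notch effector RBPJ at 1585 ± 106. Of 24 apoptosis regulators 2 were high (8.33%), the survival factor MCL1 at 1749 ± 88.3 and the BH3 protein PMAIP1 at 1077 ± 103.

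Markers of the germ layers lay mostly in the middle class, and their low shares were near or under the 11.8% of all genes. Of 24 primitive streak and mesoderm genes 1 was high and 3 were low, and 7 lay above the median of the ranking, with TBXT, the streak factor brachyury, at 114, 83.9 and 92.3, MESP1 at 251, 221 and 268 and HAND1 at 42.3, 35.4 and 39.3. KDR, a VEGF receptor, was the high one at 1249, 1258 and 1705, followed by MSX2 at 399 ± 32.1 and NKX2-5 at 386 ± 22.0. Of 18 endoderm genes 0 were high and 1 was low, and 4 lay above that median, with SOX17 at 101, 109 and 116, FOXA2 at 79.2, 76.3 and 87.0 and AFP, in the low class, at 29.0, 23.9 and 25.9. CDX2 was the brightest endoderm member at 754, 715 and 692, followed by HHEX at 456 ± 18.3. Of 25 neural genes 2 were high and 2 low, and 7 lay above that median. The high ones were the tubulin TUBB3 at 1113, 1344 and 1339 and the eye and forebrain factor SIX3 at 1257, 1089 and 1148. The neural factors PAX6 and NEUROD1 had 31.3 ± 8.95 and 26.0 ± 1.28, and SOX1 and SOX3 had 508 ± 36.3 and 477 ± 20.7. All 3 lists had medians under the median of the ranking, at percentiles 44.3, 35.5 and 31.2.

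Markers of cells that could accompany the culture varied by member. Of 16 fibroblast and feeder markers, 1 was high, THY1 at 2211, 2412 and 2292, a surface protein that human embryonic stem cells also carry and that the pluripotency list holds too. DCN read 9.98, 8.06 and 12.7 and LUM had a mean of 22.3 ± 7.45, and both were low, and POSTN had 30.4 ± 2.43, just above the low class. COL1A1 and COL1A2 had 419 ± 12.9 and 421 ± 23.4, in the middle class, and COL3A1 66.2 ± 7.89. FBLN1, a matrix protein, was the second brightest of the list at 893 ± 62.1, percentile 87.0. Of 19 trophoblast and amnion genes 1 was high, HLA-G at 1111, 1052 and 1179, whose value is uncertain because HLA genes resemble each other. CGA, the hormone subunit of trophoblast, read 27.0, 20.9 and 11.8 and GATA3 had 69.2 ± 1.28, whereas the trophoblast factors TEAD4 and CDX2 had 947 ± 131 and 720.5 ± 30.8. Of 22 blood genes 0 were high, with PTPRC, or CD45, at 14.6, 12.9 and 12.4. A part of such cells in these signals was not tested.

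**Figure D4:**
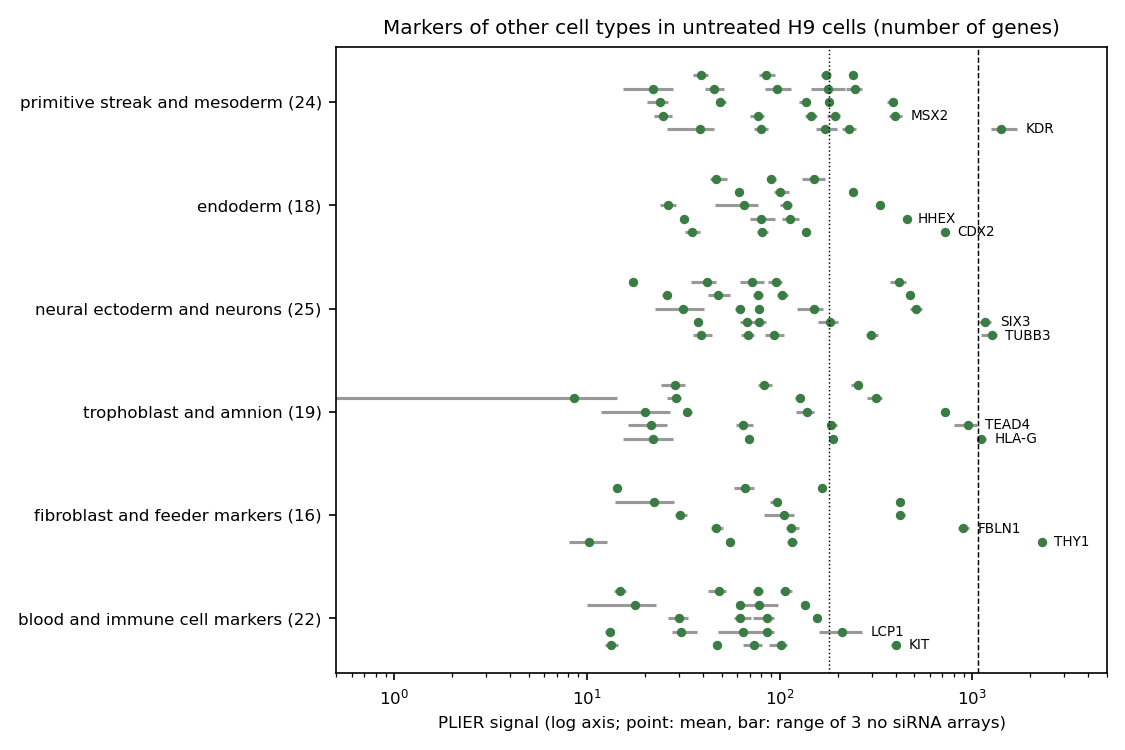
PLIER signal (x axis, log scale) of markers of other cell types in the no siRNA arrays, 1 point per gene at its mean with a bar for the range of the 3 arrays, by list (y axis, number of genes in brackets), with the 2 brightest genes of each list named. The bar of PSG3, whose lowest value was 0.0173, runs past the left edge. Only KDR, SIX3, TUBB3, HLA-G and THY1 lie right of the dashed line at 1072, the lower edge of the high class, and most genes lie left of the dotted line at 181, the median of all members.

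Genes of mature tissues had no high member in 4 lists. Of 20 liver genes 8 were low (40.0%), of 17 pancreas and gut genes 7 (41.2%) and of 26 germ cell and testis genes 8 (30.8%), against 11.8% of all genes. Of 26 muscle genes 3 were low (11.5%), near the share of all genes. Most members of each of these lists were in the middle class. CYP3A4, the main drug-metabolising enzyme of liver, read 5.18, 4.52 and 7.80, SPO11, which cuts DNA in meiosis, 7.92, 4.12 and 5.18, and GCG, glucagon, 12.5, 11.1 and 15.4. The brightest were the actins ACTA1 and ACTC1 of muscle at 1013 ± 135 and 826 ± 96.1, whose sequences resemble those of the abundant cytoplasmic actins.

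Sensory and defence families were among the lowest lists. Of 408 olfactory receptors, 0 were high, 150 middle and 258 low, with a median signal of 21.5. The lowest, OR6C70, read 4.29, 2.39 and 0.664, and the brightest by mean were OR2A20P, at 717 ± 98.7, and OR2A9P, at 637 ± 82.5, both pseudogenes by name. The low share over all genes was 11.8%. Of 36 defensins 21 were low (58.3%), of 58 interferon and interleukin genes 32 (55.2%), and of 23 bitter taste receptors 15 (65.2%). None of these lists had a high member. Of 28 genes of the interferon response list 5 were high, 18 middle and 5 low, with a median at percentile 42.7. IFITM1, a membrane protein that blocks virus entry and is known in stem cells, read 3819, 3298 and 3696, with IFITM2 at 2585 ± 45.1 and IFITM3 at 1714 ± 237, whereas the classic interferon-induced genes IFIT3, IFIT2 and IFI44 had 18.2 ± 4.92, 15.7 ± 3.70 and 11.3 ± 3.77. The 3 IFITM genes resemble each other closely, so the separate values are uncertain.

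Other families were spread by member. Of 38 HOX genes, which set body position, 0 were high and 6 low (15.8%, against 11.8% of all genes), with HOXC12 brightest at 649.6 ± 24.9. Of 19 SOX genes SOX2 was the high one, followed by SOX11 at 986 ± 42.1 and SOX4 at 670.3 ± 50.1. Of 56 cytochrome P450 genes, CYP2S1 was the high one at 2396, 2819 and 2856, and CYP51A1, a cholesterol enzyme, followed at 1035 ± 73.5. Of 345 solute carriers 31 were high (8.99%), close to the 9.81% of all genes, led by the amino acid carrier SLC38A2 at 4692 ± 522 and the glucose carriers SLC2A3 and SLC2A1, the last at 3115 ± 349.6. Of 510 zinc finger ZNF genes 19 were high and 17 low, with a median at percentile 51.4 and ZNF207, a spindle protein, at 2559.9 ± 64.7. Of 20 imprinted genes 5 were high, GNAS at 2519 ± 134, SNRPN at 2407 ± 214, PEG10 at 1857 ± 12.6, MEST at 1574 ± 53.9 and NNAT at 1564 ± 184, whereas PEG3 had 33.8 ± 2.77 and MKRN3 30.6 ± 3.71.

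CpG dinucleotides cluster in the promoters of housekeeping and developmental genes, where they usually escape methylation, and are rare before many tissue-specific genes. Over the 300-base window from RefSeq (250 before and 50 after the start), the median count was 27 in the high class (n = 1516), 24 in the middle class (n = 11496) and 3 in the low class (n = 1468), against 23 over all 14480 genes. With the genes split into 10 equal bins by signal, the median was 3 in the lowest bin, 7 in the next, 15 in the third and 22 in the fourth, and it stayed between 26 and 28 in the other 6. The pluripotency list had a median of 14 over 27 promoters, below that of the high class, and olfactory receptors had 1 over 299. TATAAA stood before 7.12% of high genes, 7.25% of middle genes and 23.4% of low genes. It stood before 50 of 66 keratin-associated protein genes (75.8%). Of the 79 ranked in that family, 0 were high, 62 middle and 17 low (21.5%, against 11.8% of all genes). TATAAA also stood before 63.9% of core histone genes with a promoter, a list with 36 of 69 genes high.

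The sequences below are the 250 bases before the start of 3 genes on chromosome 12 (RefSeq, GRCh38.p14), chosen as a bright housekeeping gene, a bright pluripotency gene and the lowest olfactory receptor, with each CpG in capitals.
GAPDH (chr12:6535014-6535263, plus strand): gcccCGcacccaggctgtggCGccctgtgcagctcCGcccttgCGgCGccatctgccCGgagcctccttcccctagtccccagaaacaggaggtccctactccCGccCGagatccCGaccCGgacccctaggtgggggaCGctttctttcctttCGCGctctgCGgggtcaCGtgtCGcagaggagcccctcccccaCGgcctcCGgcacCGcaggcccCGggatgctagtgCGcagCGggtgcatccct
PHC1 (chr12:8913593-8913842, plus strand): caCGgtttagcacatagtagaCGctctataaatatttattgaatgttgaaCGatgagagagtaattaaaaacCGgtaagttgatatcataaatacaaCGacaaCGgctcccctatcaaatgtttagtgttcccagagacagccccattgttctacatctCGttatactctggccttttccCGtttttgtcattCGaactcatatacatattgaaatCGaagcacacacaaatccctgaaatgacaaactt
OR6C70 (chr12:55470139-55470388, minus strand): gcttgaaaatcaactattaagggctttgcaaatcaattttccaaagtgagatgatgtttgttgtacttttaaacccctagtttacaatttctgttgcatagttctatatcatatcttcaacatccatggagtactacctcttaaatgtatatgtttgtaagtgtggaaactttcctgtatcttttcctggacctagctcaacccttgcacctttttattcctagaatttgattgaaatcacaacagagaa
These windows held 22, 10 and 0 CpG, and the genes had mean signals of 9096, 4494 and 2.45.

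**Figure D5:**
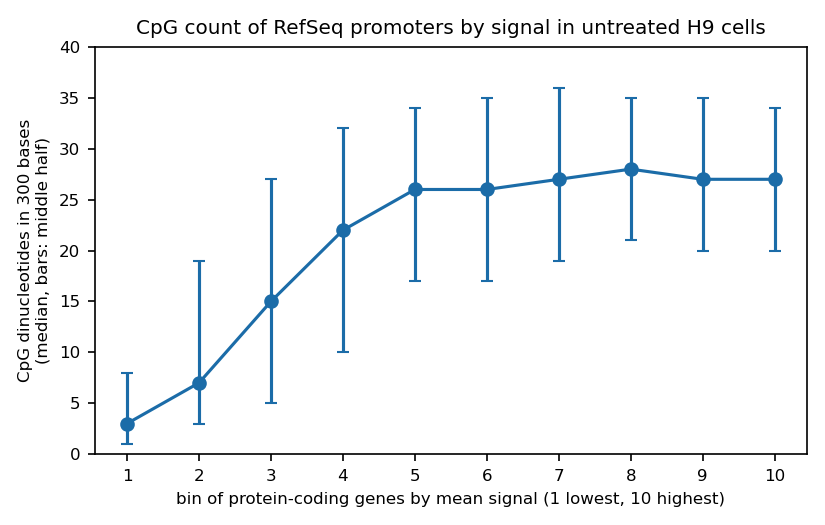
Number of CpG dinucleotides in the 300-base RefSeq promoter window (y axis, median as a point with a bar between the quartiles) for protein-coding genes in 10 equal bins of their mean signal in the no siRNA arrays (x axis, 1 lowest and 10 highest). The median climbs from 3 in the lowest bin to 26 in the fifth and then stays between 26 and 28.

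MicroRNAs direct silencing of messages through a seed of 7 bases. The miR-302 family is a hallmark of embryonic stem cells, and let-7 is the differentiation family whose maturation LIN28A blocks. The arrays measured hairpin regions only, from 201 hairpins with 1 high, 98 middle and 102 low, so the levels below are not levels of mature microRNA. The mature sequences (RefSeq, GRCh38.p14) of the families are shown with the seed, bases 2 to 8, in capitals.
hsa-miR-302a-3p (chr4:112648186-112648208, minus strand): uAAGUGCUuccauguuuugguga
hsa-miR-302b-3p (chr4:112648489-112648511, minus strand): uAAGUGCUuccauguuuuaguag
hsa-let-7a-5p (chr9:94175962-94175983, plus strand): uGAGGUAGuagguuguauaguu
hsa-let-7i-5p (chr12:62603691-62603712, plus strand): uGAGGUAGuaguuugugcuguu
MIR302B read 890, 642 and 976 and MIR302A 308, 286 and 392, at percentiles 85.9 and 64.8. Both share the seed AAGUGCU, and replicate 2 was lowest for both. In RefSeq, LARP7 and MIR302CHG both overlap these hairpins by position, with strand not considered. LARP7 had a mean of 349, and MIR302CHG had no ranked probe set. The let-7 hairpins, which share GAGGUAG, ran from 7.85 for MIRLET7C to 146 for MIRLET7I, with MIRLET7A1 at 31.1, 31.0 and 26.8. Every let-7 hairpin in the ranking thus lay below both miR-302 hairpins. Hairpins in general were weak, with a median of 25.1 at percentile 10.6 over the 201. Let-7 hairpins lay on both sides of that median, so they were not particularly low among hairpins. MIR21 had a mean of 129 within VMP1, which had 1812, and MIR25 had 173 within MCM7, which had 2198.

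Probe sets at copies of genes elsewhere in the genome were most frequent at the top of the ranking. Among probe sets with a known RefSeq chromosome, 387 of 21587 (1.79%) lay on another chromosome than their gene, and the share was 7.54% in the high class (166 of 2201), 1.12% in the middle class and 1.25% in the low class. EEF1A1, elongation factor 1 alpha, had means of 7454 on chromosome 7 and 7385 on chromosome 9, and 370 at its own locus on chromosome 6. PTMA had 9629 on chromosome 20 and 783 at its own locus on chromosome 2. LIN28A had 5624 at its own locus on chromosome 1 and 1503 on chromosome 20. With only probe sets on the RefSeq chromosome, the median of the ribosomal proteins was at percentile 98.2, against 98.9 with every probe set, and no list median moved by over 5 percentiles.

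The classes recurred in the other arrays of the series, which share the platform and the day. Of the 2206 high probe sets, 96.1% were also in the top 10% by mean with TCF7L1 siRNA and 96.3% with non-silencing siRNA. Of the 2674 low ones, 90.1% were also low with TCF7L1 siRNA and 90.2% with non-silencing siRNA. The rank correlations of the means with those of the untreated cells were 0.995 and 0.997 in the same order. A shift of over 20 percentiles occurred for 4 probe sets with TCF7L1 siRNA and for 0 with non-silencing siRNA.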

How the data were processed

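The deposited values were intensity signals on a linear scale, made by the authors with Affymetrix Expression Console 1.1.1 and PLIER 2.0 per the submitters' processing notes; the steps for background and normalization were not given in the sources used here. Total RNA was hybridised as biotin-labelled single-stranded DNA per the labels' protocols. Of 5959 described positions on build 37, 97.3% overlapped the table's positions. Controls (4204 probe sets), 264 probe sets without a chromosome, 6784 without a symbol and 2 with several symbols were left out. Symbols were updated through a RefSeq table by symbol (18649 probe sets), accession (2430) or synonym (508), and 456 matched none. No test was run, and the arrays of the siRNA groups were set beside the untreated ones only as a description. The number of arrays limits the precision. Control probe sets in the table are named only as negative controls, and their 95th percentile was the background level set first. Because it lay near the top of the ranking, levels were described by rank and by the 25th percentile of non-control probe sets. In each list the 5 brightest and 3 weakest genes and up to 2 near the median were eligible for naming, with the fixed cell type markers, the 20 top-ranked probe sets, the 10 widest ranges and the miR-302 and let-7 hairpins. Some list members are not reported here. Members and lists were chosen with earlier results of these data known. Ranges between arrays used log2(signal + 16). The rule for the top 10% was tried on simulated data, but the low-class rule at the 25th percentile was not. Python 3.11.15, pandas 2.3.3, numpy 2.4.6 and matplotlib 3.10.9 were used.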

Additional observations from a re-analysis of the deposited data

How the results depend on the processing

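The count of probe sets above background depended on the background level. Against 904 above it on all 3 arrays at the 95th percentile of the negative controls, 4606 were above the 90th percentile, 83 above the 99th, 18444 above the 25th percentile of all non-control probe sets, 5803 above the 95th percentile of 45 undescribed controls and 17847 above the median of the negative controls. The last pair of levels was chosen after seeing the data. The count above background on no array, 20572 at the planned level, was 2674 at the 25th percentile and 3253 at the median of the negative controls. Antigenomic controls are not named in the table, so an intended level based on them was not run. Each alternative setting gave several counts, and over all settings 7 of these counts moved by over 1.5 times and 53 did not. All counts stayed within that limit under quantile normalization, a mean of log2 values, at least 10 probes, repeated values left out and leaving out each replicate. So did those under a limit to the RefSeq chromosome of each gene, also chosen after seeing the data. The 53 also held some counts above background on no array at other control levels. They further held counts that the rules fixed or nearly fixed. The mean of log2 values could change only the count of list genes in the high class, because the other counts do not use the mean. Quantile normalization keeps the order within each array, on which those other counts rest, so they could hardly move. Leaving out each replicate gave 904 to 1138 probe sets above background on all arrays, 20574 to 20869 on none, 2052 to 2095 in the top 10% of every array (1997 with all arrays), 543 to 555 list genes in the high class and 644 to 652 in the low class. The level at which a signal stops being background is not fixed by these data, and 3 arrays limit the precision at low signal. No paired analysis was possible because the results come from no test.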

Other observations

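The 10 widest spreads between the untreated arrays (log2 of signal + 16) over probe sets above the 25th percentile level were ranked after seeing the data, and 2 growth-induced genes were among them. EGR1, a zinc finger factor, read 1077, 1876 and 694 on replicates 1, 2 and 3, and FOS, a subunit of AP-1, read 485, 576 and 198. Replicate 2 was highest and replicate 3 lowest for both genes. ARRDC3, an arrestin-like protein, read 227, 205 and 94.3. Other wide spreads were those of the olfactory receptor OR52A1 at 125, 140.3 and 386, the highest value on replicate 3, and of the small nucleolar RNA SNORA38B at 388, 175 and 139.6, the highest on replicate 1. The small nucleolar RNAs SNORD116-18, at 213, 80.4 and 154, and SNORD116-13, at 428, 189 and 320.1, were also highest on replicate 1 and lowest on replicate 2.

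Probe sets of the mitochondrial chromosome that the table names after nuclear genes lay in the middle and high classes. The probe set named MPLKIP had a mean of 4013 ± 628, SH3KBP1 3640.5 ± 508, TOB2 611 ± 88.3, UIMC1 231 ± 33.6 and RFC1 66.0 ± 42.3 (SD, n = 3), so these symbols do not give levels of the nuclear genes. The only microRNA hairpin in the high class, MIR622, read 2542, 2274 and 2185 from 4 probes, and in RefSeq it overlaps KRT18P27, a pseudogene of KRT18, whose own probe set at its locus had a mean of 2047.

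The share of low probe sets, 12.1% over all ranked probe sets, differed by chromosome. It was 19.3% on chromosome 21 (53 of 275), 17.7% on chromosome 4 and 16.7% on chromosome 11, and 4.72% on chromosome 16 (43 of 911), as a description with no test.

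CCAAT stood before 16 of 19 HOX genes with a promoter in the table (84.2%), a share near that of mitosis and histone genes, although 0 of 38 HOX genes were in the high class.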
